A study of Rattus norvegicus with 18 samples.

Results

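The ends described here were the last 2 Mb of chromosomes 1 to 20 of the rat, counted back on each chromosome from its last measured cytosine. They held 36049 of the 2279082 cytosines measured on these 20 autosomes, or 1.58%, and 1.55% of all 2330883 cytosines in the table. The rule used position alone, and was itself set with earlier results of these data known. The last measured cytosine is not the last base of the chromosome, and how far each window lay from the telomere was not analysed here. The remaining cytosines of the same 20 chromosomes are called the rest.

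The data come from hippocampi of 18 adult male Sprague-Dawley rats, 1 library per rat, read by reduced representation bisulfite sequencing, in which bisulfite turns unmethylated cytosines into bases read as thymine. The tested rats were 4 kindling seizure rats, stimulated through hippocampal electrodes until fully kindled, and 3 kainic acid seizure rats, which had electrodes implanted and received rising doses of kainic acid until status epilepticus; both seizure groups carry the label 3 Class V. They were set against 4 kindling sham rats and 7 kainic acid sham rats. The hippocampus was taken 24 h after the last seizure, and the sources used here do not say what the sham rats underwent. The tissue is whole hippocampus, so a shift in the mix of cell types and a change within a cell type cannot be told apart.

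In mammals, DNA methylation is found mostly at cytosines followed by guanine (CpG). CpG-rich stretches, many of them at the starts of genes, are usually unmethylated, while isolated CpGs are usually methylated. The stretch next to a telomere, the subtelomere, often differs from the inside of a chromosome in gene and CpG content, and the enzyme MspI used here cuts at CCGG, so that CpG-rich DNA is read most often. A level below is the percent of reads of a cytosine that were methylated, averaged over the cytosines named, and differences between levels are in percentage points.

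Pooled, the ends were about as rich in measured cytosines as the rest, but this average came from a few very dense ends. The ends held 901 measured cytosines per Mb and the rest 871, a ratio of 1.04, and per Mb the ends held 509 CpGs and the rest 494. Only 5 of the 20 ends were denser than the rest of their own chromosome, and the median ratio over the 20 ends was 0.662. The ends of chromosomes 3, 5, 7 and 12 together held 21421 cytosines, 59.4% of all end cytosines. With these 4 chromosomes left out, a choice made after the values were seen, the ratio of ends to rest was 0.557. All rats share the same measured positions, so these densities have no replicate error and were not tested.

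The densest end against its own chromosome was that of chromosome 5, at chr5:171692932-173692931, with 3331 cytosines per Mb in the end and 953 in the rest, a ratio of 3.49. The end of chromosome 3, at chr3:175653262-177653261, held 2664 cytosines per Mb against 943 in its rest, a ratio of 2.83, and the end of chromosome 7, at chr7:143727089-145727088, held 2367 against 1038, a ratio of 2.28. Among all 2 Mb windows of their own chromosomes these ends ranked 4th of 86, 6th of 88 and 7th of 72 in density. Other windows of the same 3 chromosomes were thus at least as dense.

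At the other extreme, the end of chromosome 16, at chr16:88662305-90662304, held 114 cytosines per Mb against 823 in its rest, a ratio of 0.138. The ends of chromosomes 10 and 18 followed with ratios of 0.252 and 0.263. In all, 7 of the 20 ends had a ratio under 0.5 and 3 had a ratio over 2. In density, 9 of the 20 ends lay above the median 2 Mb window of their chromosome.

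**Figure D1:**
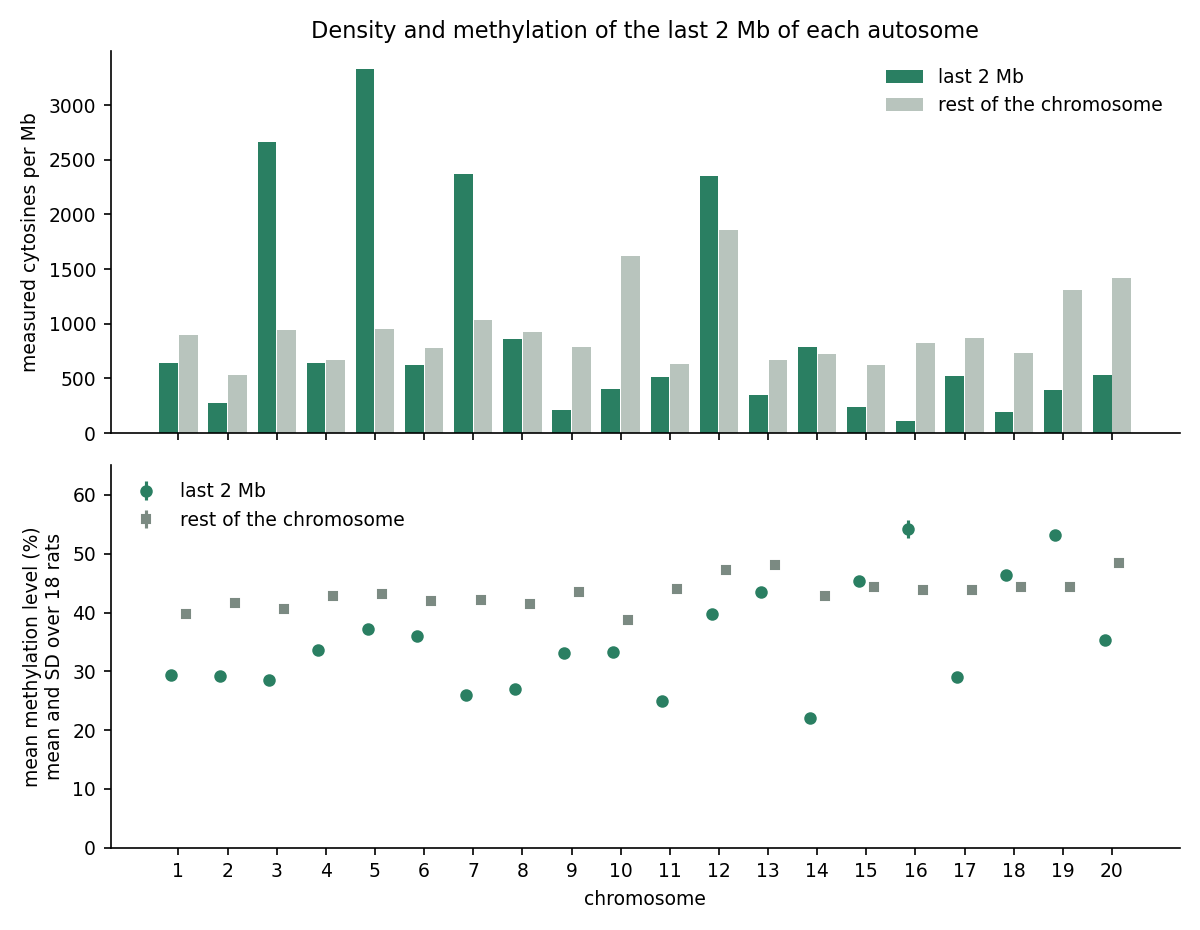
Upper panel: measured cytosines per Mb in the last 2 Mb (dark green bars) and in the rest (grey bars) of each of the 20 autosomes. Lower panel: mean methylation level in percent of the same cytosines, as the mean and SD over 18 rats (most SDs are smaller than the symbols). The ends of chromosomes 3, 5, 7 and 12 stand out in density, and 16 of the 20 ends lie below the rest in level.

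The ends were less methylated than the rest of the chromosomes in every rat. The mean level of end cytosines was 33.1% ± 0.375 and that of the rest 42.6% ± 0.340 (SD, n = 18 rats), a difference of -9.52 ± 0.0740 points. The ends were lower in 18 of 18 rats, and a two-sided sign-flip permutation test over the rats gave p = 1e-05, the smallest that 100000 resamples can give. This p measures the spread between rats that were read at the same cytosines; it does not measure the spread between places in the genome. The labels give each library as 1 rat, and the spread between libraries of 1 rat was not measured.

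In the 4 kindling seizure rats the level was 33.4%, 32.9%, 33.9% and 32.6% in the ends and 43.0%, 42.4%, 43.2% and 42.3% in the rest. In the 4 kindling sham rats it was 33.4%, 32.6%, 33.1% and 32.6% in the ends and 42.9%, 42.1%, 42.7% and 42.2% in the rest. In the 3 kainic acid seizure rats it was 33.2%, 33.3% and 33.3% in the ends and 42.7%, 42.9% and 42.9% in the rest. In the 7 kainic acid sham rats the lowest, median and highest levels were 32.6%, 33.0% and 33.4% in the ends and 42.1%, 42.5% and 42.9% in the rest. The levels of ends and rest did not overlap in any group, while the 4 groups overlapped with one another.

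**Figure D2:**
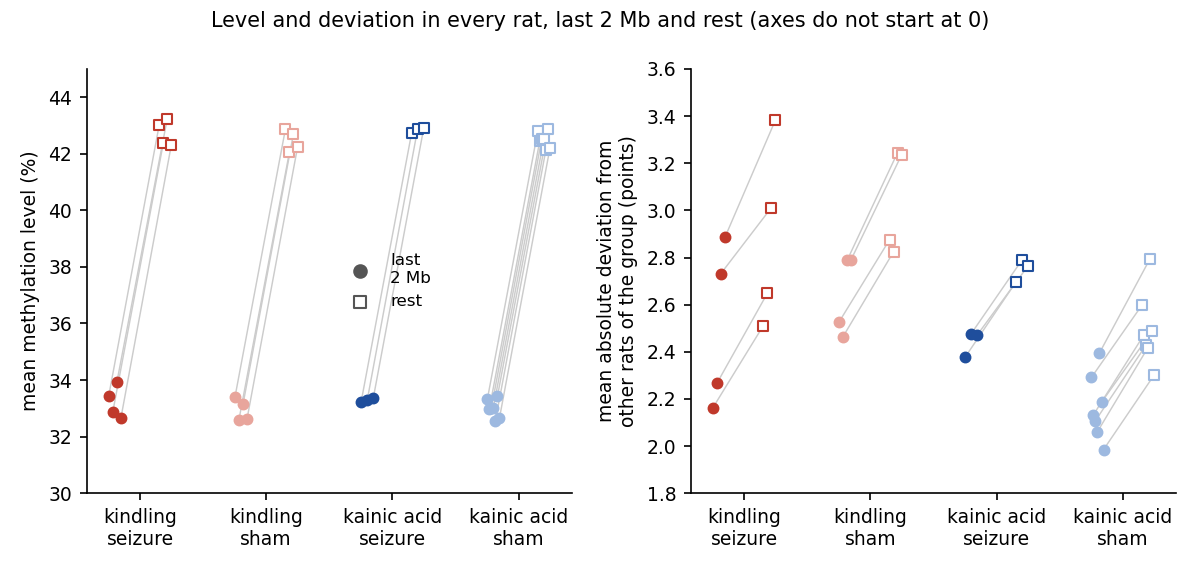
Left panel: mean methylation level in percent of the last 2 Mb (filled circles) and of the rest (open squares) in each of the 18 rats, by group, with a line joining the values of 1 rat. Right panel: mean absolute deviation in percentage points of each rat from the other rats of its group; all 18 lines run upward from the ends to the rest in both panels, and neither axis starts at 0.

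The lower level was a feature of most ends and not of all of them. The end was lower than its own rest in 16 of 20 chromosomes and higher in 4, and within each of the 20 chromosomes the direction was the same in all 18 rats. The largest gaps were on chromosome 14, with 22.1% in the end and 42.8% in the rest, a difference of -20.7 points, on chromosome 11 with 25.0% and 44.1%, a difference of -19.1 points, and on chromosome 7 with 25.9% and 42.1%, a difference of -16.1 points. The ends of chromosomes 8, 11 and 14 were the lowest in level of all 2 Mb windows of their chromosomes that held at least 100 cytosines. In level, 17 of the 20 ends lay below the median of these windows.

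The 4 ends above their rest were those of chromosomes 16, 19, 18 and 15. The end of chromosome 16 stood at 54.2% against 43.9% in its rest, a difference of 10.4 points, and that of chromosome 19 at 53.2% against 44.4%, a difference of 8.82 points. Chromosomes 18 and 15 differed by 2.18 and 0.877 points. All 4 of these ends were sparse, with density ratios of 0.138, 0.301, 0.263 and 0.382. Over the 20 ends Spearman's rho between the density ratio and the level difference was -0.51, given as a description, since density and level are read from the same cytosines.

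The gap in level went with a shift from methylated to unmethylated cytosines. Cytosines under 10% made up 59.3% of the ends and 48.0% of the rest, those from 10 to 90% made up 18.5% of the ends and 23.5% of the rest, and those over 90% made up 22.2% of the ends and 28.5% of the rest. Across the 20 ends the share under 10% ran from 21.1% on chromosome 16 to 73.8% on chromosome 14. The share of cytosines reported at exactly 0 was also higher in the ends, by 2.89 points (higher in 18 of 18 rats). That share ran from 8.89% to 25.4% per rat over the whole table and can depend on read depth, which is unknown here; its part in the level difference was not tested.

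Dense and sparse stretches of the ends did not share the gap equally. The table was divided into non-overlapping tiles of 1000 bp with at least 3 measured cytosines, which gave 1885 tiles in the ends and 145608 in the rest. The ends held fewer tiles per Mb, 47.1 against 56.5 in the rest, with more cytosines in each, a mean of 18.6 against 14.9. Tiles of 40 or more cytosines, the densest stretches, made up 12.6% of the end tiles and 8.51% of the rest.

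The tiles of intermediate density carried the largest difference. In tiles of 10 to 39 cytosines the level was 50.1% in the 553 end tiles and 62.3% in the rest, a difference of -12.2 ± 0.157 points (SD over 18 rats), and the end was lower in 19 of 20 chromosomes. In sparse tiles of 3 to 9 cytosines it was 78.2% in 1095 end tiles and 79.3% in the rest, a difference of -1.12 ± 0.0929 points, and the end was lower in 9 of 20 chromosomes. In tiles of 40 or more it was 12.1% in 237 end tiles and 13.1% in the rest, a difference of -1.01 ± 0.0408 points, lower in 15 of the 19 ends that held such a tile. Each of these 3 differences had the same sign in 18 of 18 rats, with a permutation p of 1e-05, also when adjusted over the 6 tests of classes of cytosines (3 of level and 3 of spread). As for the pooled level, this p measures the spread between rats read at the same cytosines, not the spread between places.

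In finer steps, the gap was -8.70 points in tiles of 10 to 14 cytosines, -8.76 in those of 15 to 19 and -8.55 in those of 20 to 29. It was -2.24 points in tiles of 30 to 39 and between -1.10 and -0.70 in the 3 steps above. In the sparsest tiles, of 3 to 5 cytosines, the ends stood at 81.0% and the rest at 80.3%, and in those of 6 to 9 cytosines at 75.1% and 78.2%, a gap of -3.14 points. Within the class of 10 to 39 the end tiles also lay more in its denser steps: 80 of the 553 end tiles, against 3646 of the 42164 tiles of the rest, held 30 to 39 cytosines. With each of the 3 density classes given equal weight, the level difference between ends and rest was -4.78 points.

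Within the last 2 Mb the level was lowest some way in from the last measured cytosine. It was 38.5% ± 0.481 in the last 0.25 Mb (SD, n = 18), 28.1% in the next 0.25 Mb and 22.3% ± 0.416 from 0.5 to 0.75 Mb. From there the pooled level was higher in each bin of 0.25 Mb, at 27.1%, 29%, 35.1%, 37.9% and, from 1.75 to 2 Mb, 47.2% ± 0.333. Some of these bins held few cytosines on some chromosomes: from 1 to 1.25 Mb only 12 chromosomes had 20 or more, and chromosomes with dense ends weigh most in the pooled level. The median over the chromosomes with at least 20 cytosines in the bin was 53.3% in the last 0.25 Mb and 22.6% from 0.5 to 0.75 Mb. In the later bins this median was 24.8%, 33.0%, 38.7%, 34.6% and 41.3%, so it did not rise at each step.

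The band just inside the ends was much richer in measured cytosines. From 2 to 5 Mb, a band chosen after the profile was seen, there were 1522 cytosines per Mb, against 901 in the ends, and the end was less dense than this band in 14 of 20 chromosomes. The level of the band was 44.6% ± 0.324 (SD, n = 18), and the end was lower in 16 of 20 chromosomes. With a window of 5 Mb in place of 2 Mb the density ratio of end to rest was therefore 1.49 and the level difference -1.18 points, and with a window of 1 Mb they were 0.958 and -13.9 points. The size of the level difference thus depended on the window, and its direction did not over these 3 windows.

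**Figure D3:**
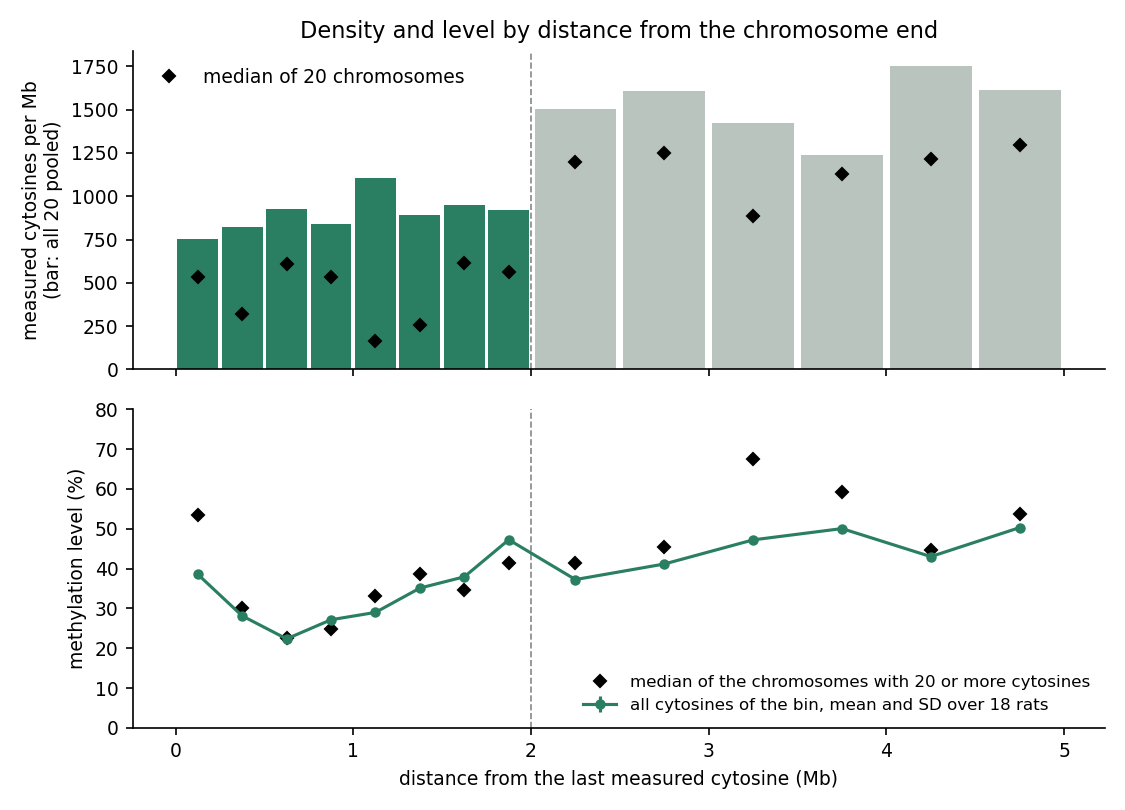
Measured cytosines per Mb (upper panel, bars for all 20 autosomes pooled, diamonds for the median chromosome) and methylation level in percent (lower panel, line for the mean and SD over 18 rats, diamonds for the median chromosome) against distance in Mb from the last measured cytosine. The dashed line marks 2 Mb; pooled density lies between 751 and 1104 inside it and between 1235 and 1752 in the bins from 2 to 5 Mb, and the level is lowest, at 22.3%, from 0.5 to 0.75 Mb.

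The first 2 Mb of the same chromosomes did not share the low level. They held 23668 cytosines, 592 per Mb, at a level of 43.0% ± 0.326 (SD, n = 18). The end minus start difference was -9.91 ± 0.211 points, lower in the ends in 18 of 18 rats (two-sided sign-flip permutation test, p = 1e-05). Here too the p measures the spread between rats and not the spread between places in the genome. By chromosome, the end was lower in level in 15 of 20 and denser in 10 of 20.

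Rats of 1 group differed less from one another in the ends than in the rest. The mean absolute deviation of a rat from the mean of the other rats of its group was 2.39 ± 0.272 points in the ends and 2.75 ± 0.310 in the rest (SD, n = 18). The difference was -0.354 ± 0.0609 points, lower in the ends in 18 of 18 rats (two-sided sign-flip permutation test, p = 1e-05). Each deviation is measured from the other rats of the group, so the 18 values are built from one another. The test treats them as independent, so its p-values for deviation, here and below, are a description only. By chromosome, the mean SD within groups was lower in the end than in the rest in 19 of 20, chromosome 16 being the exception with 4.62 against 3.13 points. With a window of 5 Mb the difference in deviation was 0.00863 points, of the opposite sign (permutation p = 0.017).

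Cytosines near 0 or 100% can vary less than those between, and the ends held more cytosines near 0. Within level classes the difference was small. For cytosines of 10 to 90% the deviation was 6.08 points in the ends and 6.45 in the rest, lower in the ends in 18 of 18 rats, and for those over 90% it was 1.92 and 2.0 points, also lower in 18 rats. For cytosines under 10% it was 1.42 points in the ends and 1.39 in the rest, higher in the ends in 18 rats. The permutation p was 1e-05 for each of these 3, before and after adjustment over the 6 tests of classes, with the same limit on independence. With the level classes given equal weight the difference between ends and rest was -0.136 points. Ends and rest still differed in mean level within the classes. Under 10% they stood at 1.98% and 1.87%, from 10 to 90% at 56.2% and 60.1%, and over 90% at 97.0% and 96.8%. The part of these level differences in the deviation was not tested.

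Strongly variable cytosines were scarcer in the ends as well. The range over the 18 rats exceeded 60 points at 82 end cytosines, 0.227% of the ends against 0.551% of the rest, and exceeded 30 points at 4.79% of the ends against 6.66% of the rest. As a gauge of read noise, both strands of a CpG differed by 2.81 ± 0.274 points in the ends and 3.16 ± 0.273 in the rest (SD, n = 18), and for CpGs of 10 to 90% by 7.09 and 7.14 points. In that class of CpGs the strand difference was lower in the ends in 13 of 18 rats (permutation p = 0.097). The part of read noise in the lower deviation was not tested.

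The mean level of the ends was slightly higher in seizure rats than in sham rats in both models, and neither difference passed its exact permutation test. In kindling the ends stood at 33.2% ± 0.575 in the 4 seizure rats and 32.9% ± 0.391 in the 4 sham rats (SD), 0.278 points higher in seizure rats (exact permutation test, two-sided, p = 0.4). With kainic acid they stood at 33.3% ± 0.0632 in the 3 seizure rats and 33.0% ± 0.316 in the 7 sham rats, 0.293 points higher in seizure rats (exact permutation test, two-sided, p = 0.167). The smallest p these tests can give is 0.0286 over 70 arrangements in kindling and 0.00833 over 120 in the kainic acid model. Between the models the seizure difference was 0.0155 points larger for kainic acid (exact permutation within models, p = 0.971).

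Set against the rest of the chromosomes, the seizure difference of the ends was close to 0. The end minus rest level was -9.52 ± 0.143 points in kindling seizure rats and -9.53 ± 0.0685 in kindling sham rats, so that the seizure difference of the ends exceeded that of the rest by 0.00852 points (exact permutation p = 0.943). With kainic acid it was -9.55 ± 0.0468 points in seizure rats and -9.51 ± 0.0400 in sham rats, a difference of -0.0391 points (exact permutation p = 0.217). That difference was -0.137 points as a mean of the 20 chromosomes and -0.108 without chromosomes 3, 5, 7 and 12, a choice made after seeing the data (exact permutation p = 0.05 for each). The share of end cytosines reported at exactly 0 was 15.98% ± 6.24 in kindling seizure and 20.9% ± 7.34 in kindling sham rats, and 12.4% ± 2.48 in kainic acid seizure and 16.6% ± 4.30 in kainic acid sham rats. The part of that share in the seizure differences was not tested.

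By class of cytosine the seizure difference of the ends lay between -0.0285 points, for cytosines over 90% in the kainic acid model, and 0.525 points, for those of 10 to 90% in kindling. None of the 12 differences, over 3 level classes and 3 density classes in each model, passed its exact permutation test after adjustment (adjusted p = 0.567 for each). The smallest unadjusted exact p was 0.142, for cytosines under 10% in the kainic acid model.

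End by end, all 20 chromosomes had a higher mean in kindling seizure rats than in kindling sham rats, by 0.0537 to 1.83 points with a median of 0.274, and none passed the test. The rest of the 20 chromosomes differed by 0.218 to 0.320 points in the same direction, so the shared sign was not particular to the ends. With kainic acid 16 ends were higher in seizure rats and 4 lower, from -0.565 to 0.643 points with a median of 0.251, while the rest differed by 0.291 to 0.367 points. Of 20 exact permutation tests per model, 0 had an adjusted p under 0.05; unadjusted, 0 in kindling and 1 in the kainic acid model fell under it, and the smallest adjusted p was 0.773 in kindling and 0.458 in the kainic acid model. The ends are not separate replicates, since the 20 values of a rat come from 1 library.

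The largest kindling differences were at the ends of chromosomes 16, 1 and 2. On chromosome 16 the seizure rats had 55.0%, 56.8%, 55.0% and 52.8%, against 54.0%, 55.4%, 52.6% and 50.1% in the sham rats, a difference of 1.83 points (exact permutation p = 0.257). The groups overlapped. On chromosomes 1 and 2 the differences were 0.516 and 0.392 points, and the smallest were 0.0537 on chromosome 18, 0.0552 on chromosome 13 and 0.142 on chromosome 10.

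In the kainic acid model the ends of chromosomes 4, 7 and 9 had the largest differences, of 0.643, 0.480 and 0.429 points. On chromosome 7 the 3 seizure rats stood at 26.20%, 26.37% and 26.22%, against a lowest of 25.33%, a median of 25.77% and a highest of 26.19% in the 7 sham rats. All 3 seizure rats lay above all 7 sham rats, the lowest of them only just, and the exact permutation p of 0.0417 became 0.458 when adjusted over the 20 ends. The lowest differences were -0.565 points on chromosome 16, -0.0972 on chromosome 11 and -0.0598 on chromosome 13.

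**Figure D4:**
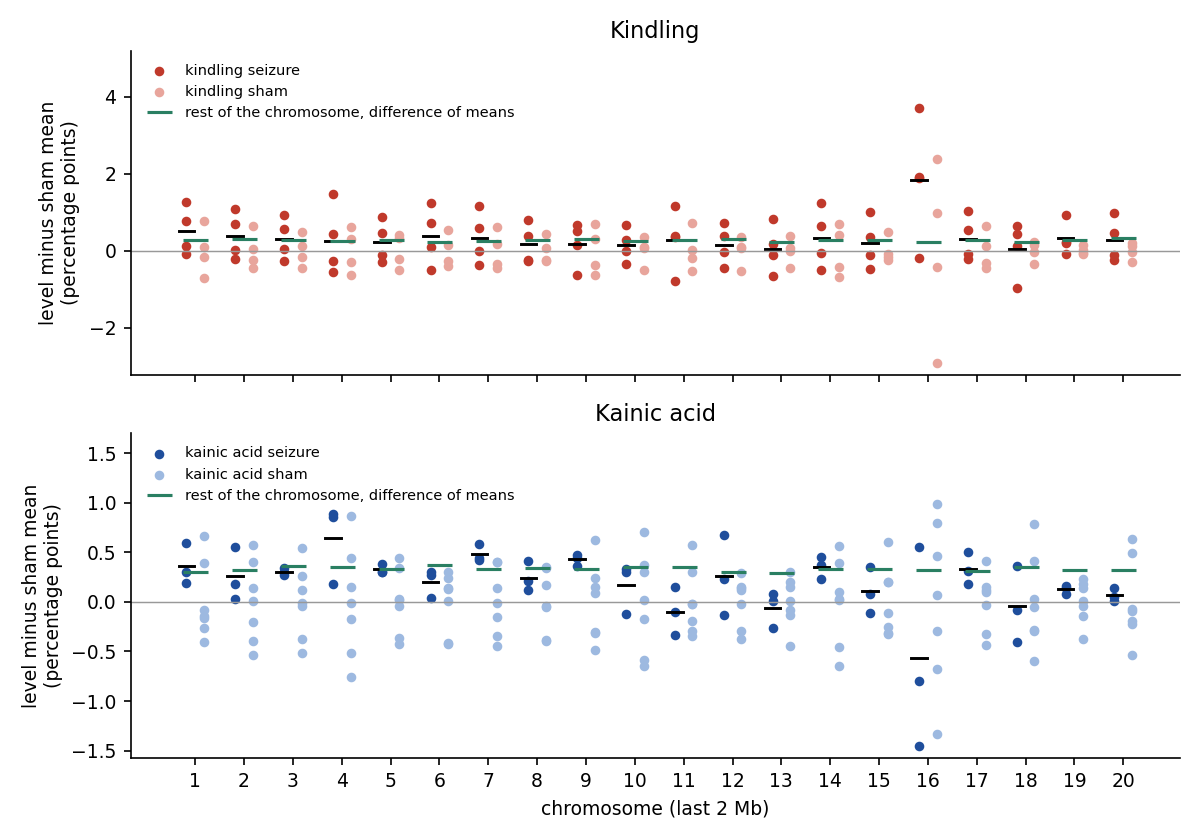
Level of the last 2 Mb of each autosome in each rat, as percentage points from the mean of the sham rats of the same model: kindling above, kainic acid below, seizure rats (dark points) left of sham rats (light points). Black bars mark the mean of the seizure rats and green bars the seizure minus sham difference of the rest of the chromosome; chromosome 16 has the widest spread in both models, and the 2 panels have different vertical scales.

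The last tile of chromosome 16 varied widely between rats. This end had the fewest cytosines, 227, of which 37 lay within 298 bp at chr16:90662007-90662304. The level of that tile was 59.3%, 69.0%, 55.9% and 53.0% in the 4 kindling seizure rats and 53.5%, 68.0%, 50.3% and 34.3% in the 4 kindling sham rats. It was 63.5%, 53.3% and 50.5% in the 3 kainic acid seizure rats and 53.9%, 59.6% and 62.6% as the lowest, median and highest of the 7 kainic acid sham rats. Without this tile, a choice made after its values were seen, the mean SD within groups at this end was 3.8 points in place of 4.62, still above the 3.13 of the rest of the chromosome and the 3.10 of the next most variable end, that of chromosome 12. The seizure difference without it was 0.685 points in kindling and -0.0411 in the kainic acid model (exact permutation p = 0.286 and 0.908).

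Tile by tile, seizure and sham rats were compared with limma in 1 fit over all tiles of the table, with p-values adjusted over all 84600 tiles whose range over the rats reached 5 points. Of the 1885 end tiles, 910 passed that filter. At an adjusted p under 0.05, limma called 0 of the 910 end tiles in kindling, where it called 0% of all tiles, and 0 in the kainic acid model, where it also called 0%; the same held for the mean of both models and for the difference between the models, at 0% of all tiles each. The smallest adjusted p among end tiles was 0.768 in kindling, 1.0 in the kainic acid model, 0.990 for the mean of both and 0.792 for the difference between models.

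Without adjustment, the end tiles were near the background of the table or under it. At an unadjusted p under 0.05 limma counted 45 end tiles in kindling, 4.95% against 5.71% of all tiles, and 28 in the kainic acid model, 3.08% against 3.54%. For the mean of both models it counted 20, or 2.20% against 4.56%, and for the difference between models 32, or 3.52% against 4.75%. In kindling 26 of the 45 were higher in seizure rats, 2.86% of the end tiles against 3.59% of all tiles, and 19 lower, 2.09% against 2.12%. For kainic acid 15 of the 28 were higher, 1.65% against 2.13%, and 13 lower, 1.43% against 1.41%. The difference was above 0 at 510 of the 910 end tiles in kindling, 56% against 56.1% of all tiles, and at 500 in the kainic acid model, 54.9% against 57.4%. The median difference of the end tiles was 0.30 points in kindling, where that of all tiles was 0.30, and 0.16 in the kainic acid model, where that of all tiles was 0.31.

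The groups did not overlap at 23 of the 910 end tiles in kindling, 2.53% against 2.44% of all tiles, with 13 higher in seizure rats (1.53% of all tiles) and 10 lower (0.91% of all tiles). For kainic acid they did not overlap at 15, or 1.65% against 1.49% of all tiles, with 11 higher (0.982% of all tiles) and 4 lower (0.507% of all tiles). The median 95% interval of the seizure difference of an end tile reached 3.88 points to either side in kindling and 3.78 in the kainic acid model, and tiles with narrower intervals also missed the adjusted threshold.

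Single cytosines gave a like result. Of the end cytosines, 10175 had a range of at least 10 points and were tested among 800753 in the table. At an adjusted p under 0.05, limma called 0 of them in kindling, where it called 0% of all cytosines, and 0 in the kainic acid model, where it called 5 cytosines of the table, 0.000624%. At an unadjusted p under 0.05 it counted 530 in kindling, 5.21% against 5.72% of all, and 378 in the kainic acid model, 3.71% against 3.82%. A few alternative fits called single end cytosines. In kindling limma called 1 with replicate numbers as a block, where it called 0.000125% of all cytosines tested, 1 in a fit of the kindling rats alone (0.000999% of all) and 1 without kindling sham replicate 1 (0.00643% of all). For kainic acid it called 1 with the block (0.00425% of all) and 5 without the range filter (0.00978% of all).

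The tiles with the smallest p-values were named by rule, called or not, and none of them passed the adjusted threshold. The largest among the kainic acid tiles was chr4:182809001-182810000, of 4 cytosines, 1.42 Mb from the last. It stood at 77.5%, 70.7% and 72.1% in the 3 kainic acid seizure rats, against a lowest of 49.5%, a median of 61.6% and a highest of 66.6% in the 7 sham rats, and the groups did not overlap. Its difference was 13.5 ± 8.91 points (95% interval, limma; adjusted p = 1.0). In kindling the same tile stood at 64.9%, 57.0%, 60.1% and 63.8% in seizure rats and at 62.1%, 65.8%, 78.6% and 82.4% in sham rats, a difference of -10.8 points (limma, adjusted p = 0.857). The difference between models at this tile was 24.3 ± 12.8 points (95% interval), with an adjusted p of 0.792 in limma.

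The tile at chr1:281117001-281118000, of 3 cytosines, led the mean of both models. It stood at 81.8%, 82.9%, 81.4% and 83.9% in kindling seizure rats and at 79.9%, 82%, 72.5% and 72.6% in kindling sham rats. Among kainic acid rats it stood at 81.5%, 82.7% and 86.3% in seizure rats, against a lowest of 73.1%, a median of 78.2% and a highest of 81.2% in sham rats. The seizure rats lay above the sham rats without overlap in the kainic acid model and overlapped them in kindling. The differences were 5.74 points in kindling and 6.16 in the kainic acid model, and their mean was 5.95 ± 3.24 points (95% interval, limma; adjusted p = 0.990).

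Among the 5 kindling tiles named as lower, the one at chr3:175851001-175852000, of 3 cytosines, had the smallest p. It stood at 62.9%, 58.2%, 58.4% and 57.0% in the 4 kindling seizure rats and at 62.8%, 68.4%, 70.6% and 65.7% in the 4 sham rats, which overlapped by a fraction of a point. Its difference was -7.77 ± 4.64 points (95% interval, limma; adjusted p = 0.768), and in the kainic acid model it was 0.98 points. The tile at chr18:87322001-87323000, of 6 cytosines, stood at 86.4%, 84.4%, 84.6% and 84.0% in kindling seizure rats and 89.1%, 90.6%, 91.2% and 86.9% in sham rats, without overlap, a difference of -4.60 points (limma, adjusted p = 0.775). In the kainic acid model that tile differed by 2.44 points. The largest of the 5 kindling tiles named as higher, at chr5:172219001-172220000, of 9 cytosines, stood at 47.6%, 38.5%, 32.5% and 35.3% in seizure rats and at 26.1%, 29.6%, 34% and 27.4% in sham rats, a difference of 9.23 points with overlap (limma, adjusted p = 0.788). Its difference in the kainic acid model was 0.493 points.

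The other tiles named for kindling were at chr18:87369001-87370000, chr7:143732001-143733000, chr5:171796001-171797000 and chr7:144066001-144067000 on the higher side, with differences of 3.11, 5.62, 3.37 and 5.6 points. In the kainic acid model they went the other way, by -1.82, -3.64, -1.43 and -0.353 points. On the lower side the kindling tiles were at chr5:172664001-172665000, chr10:111836001-111837000 and chr12:51242001-51243000, with differences of -6.27, -4.70 and -6.72 points. These also went the other way in the kainic acid model, by 3.00, 0.457 and 3.73 points. The choice by p fixes the sign and size of the difference in the contrast it used, and much of the separation of those groups. The same holds for the tiles named by p above and for the tiles that follow, so their differences and intervals are a description.

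For the kainic acid model the other tiles named as higher were at chr5:172189001-172190000, chr5:172732001-172733000 and chr3:176531001-176532000, with differences of 5.29, 5.93 and 4.55 points. Named as lower were chr5:172772001-172773000, chr18:87576001-87577000, chr7:144005001-144006000, chr18:87392001-87393000 and chr5:173674001-173675000, with differences of -4.82, -3.36, -4.27, -3.58 and -7.26 points. For the mean of both models, the tiles at chr3:176371001-176372000 and chr19:60396001-60397000 were named as higher, by 5.99 and 2.25 points, and those at chr19:61642001-61643000, chr5:173306001-173307000 and chr11:88502001-88503000 as lower, by -4.66, -3.56 and -3.34 points.

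A few places in the ends varied widely between rats of the same group. The median SD within groups of the 1885 end tiles was 1.30 points, 98 tiles exceeded 5 points and 6 exceeded 10. The highest, 16.5 points, was at chr5:172472001-172473000, of 4 cytosines. It stood at 41.0%, 43.0%, 42.3% and 44.6% in the 4 kindling seizure rats and at 41.5%, 43.4%, 65.2% and 92.6% in the 4 kindling sham rats. In the 3 kainic acid seizure rats it stood at 47.4%, 88.9% and 43.7%, and in the 7 kainic acid sham rats at 42.7%, 64.8%, 65.6%, 48.1%, 42.6%, 40.6% and 65%. The values lay from 40.6 to 48.1% in 12 rats, from 64.8 to 65.6% in 4 and at 88.9 and 92.6% in 2, and the higher values were found in both sham groups and in 1 seizure group.

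The next tile, at chr5:171946001-171947000, of 3 cytosines, had an SD of 15.8 points and ran from 35 to 64.9% in kindling seizure rats, from 23 to 64.1% in kindling sham rats, from 42.3 to 64.6% in kainic acid seizure rats and from 11.9 to 65.2% in kainic acid sham rats. The tile at chr1:281792001-281793000, with an SD of 11.7 points, stood at 65.6%, 59.8%, 63.6% and 25.3% in kindling seizure rats and at 48.5%, 38.6%, 24.2% and 34% in kindling sham rats. There 3 of the 4 seizure rats lay above all sham rats and 1 lay among them, and the difference of 17.2 points had an adjusted p of 0.874 in limma. The tiles at chr11:90460001-90461000 and chr8:131853001-131854000 had SDs of 12.2 and 11.5 points.

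The tile on chromosome 11 held the last measured cytosine of that chromosome. It stood at 21.97%, 24.3% and 17.2% in the 3 kainic acid seizure rats, and at 49.1%, 41.1%, 39.02%, 53.2%, 33.7%, 34.7% and 8.68% in the 7 kainic acid sham rats. In 6 of the 7 sham rats it was above all seizure rats and in 1 below them, and the difference of -15.9 points had an adjusted p of 1.0 in limma. As a set, the last tiles of the 20 chromosomes were not more variable than others: 10 of the 20 had an SD above the median tile of their end.

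**Figure D5:**
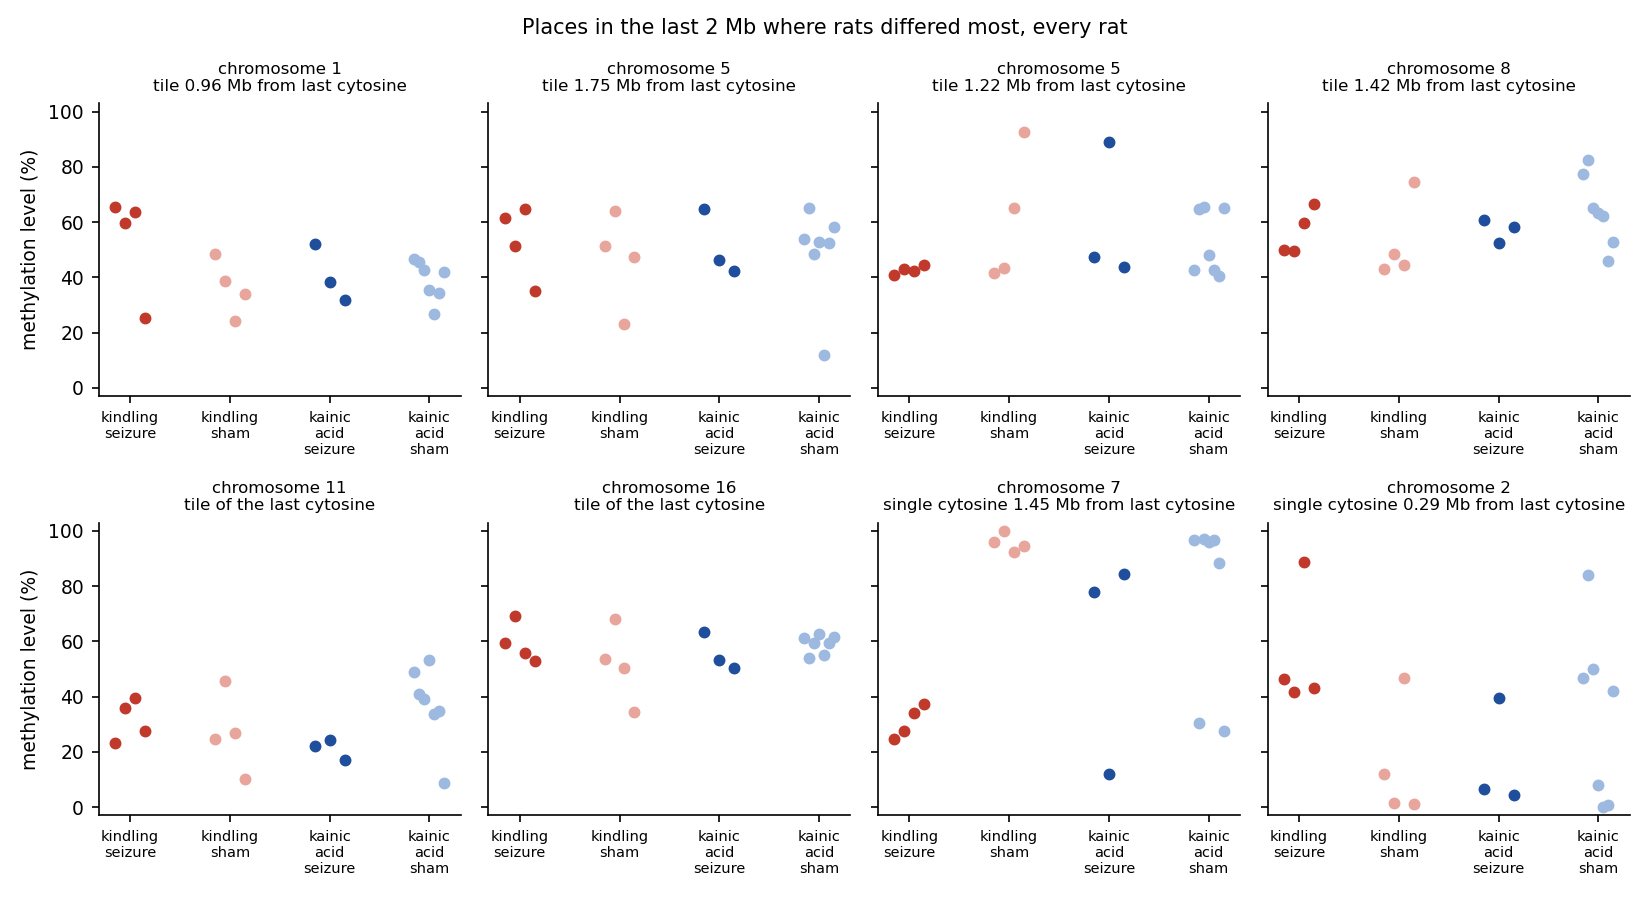
Methylation level in percent of every rat, by group, at the 5 end tiles with the largest SD within groups, at the last tile of chromosome 16 and at 2 single cytosines on chromosomes 7 and 2. Each point is 1 rat; on chromosome 7 the 4 kindling seizure rats lie between 24.6 and 37.2% and the 4 kindling sham rats between 92.3 and 100%, with values of both kinds in the kainic acid groups.

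One CpG on chromosome 7 had kindling groups far apart; it was singled out after its values were seen, because it was called in 2 alternative fits. Its cytosine at position 144273913 on the plus strand, 1.45 Mb from the last, stood at 24.6%, 27.4%, 34% and 37.2% in the 4 kindling seizure rats and at 95.8%, 100%, 92.3% and 94.4% in the 4 kindling sham rats. The difference was -64.8 points, with a limma adjusted p of 0.698 in the fit over all 4 groups, 0.0147 with replicate numbers as a block and 0.01 in a fit of the kindling rats alone. The cytosine opposite it, on the minus strand, differed by -52.7 points. It was the 1 cytosine that differed by more than 10 points in kindling among the 76 others measured within 500 bp.

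The kainic acid rats held the same split of values at this CpG without the split of groups. The plus strand stood at 77.8%, 11.9% and 84.4% in the 3 kainic acid seizure rats and at 96.9%, 30.5%, 97.0%, 96.0%, 96.8%, 88.2% and 27.6% in the 7 kainic acid sham rats. Low values were thus present in 1 kainic acid seizure rat and in 2 kainic acid sham rats. Whether the rats differ in DNA sequence at this CpG was not tested, as the deposited table holds no genotypes.

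At position 266098644 on the plus strand of chromosome 2 the values also fell far apart between rats. It stood at 46.6%, 41.5%, 88.6% and 43.3% in kindling seizure rats and at 12.0%, 1.65%, 46.6% and 1.14% in kindling sham rats, a difference of 39.6 points (limma, adjusted p = 0.848). In the kainic acid model it stood at 6.37%, 39.4% and 4.39% in seizure rats and at 46.8%, 83.9%, 50%, 8.03%, 0%, 0.658% and 42.2% in sham rats, a difference of -16.4 points (limma, adjusted p = 1.0). With replicate numbers as a block this cytosine was called in the kainic acid model (limma, difference of -43.5 points, adjusted p = 0.0204). Kainic acid sham rats without a same-numbered seizure rat did not enter that difference. The cytosine was singled out for this call, and the block fit favours near-constant differences between same-numbered rats. The agreement of the pairs is therefore a description. Between same-numbered rats the seizure minus sham differences were 34.5, 39.9, 42.0 and 42.1 points in kindling and -40.4, -44.5 and -45.6 in the kainic acid model, although the labels do not say that the numbers pair rats. The opposite strand differed by 38.1 points in kindling and by -13.5 in the kainic acid model. Between same-numbered rats it differed by 17.6, 41.4, 51.1 and 42.4 points in kindling, which was less constant than on the plus strand. In the kainic acid model these differences were -38.0, -38.7 and -46.4 points.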

How the data were processed

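The authors deposited a table of methylation fractions (beta values, 0 to 1) per cytosine and rat, each strand in its own row, and per the submitters' processing notes FastQC, Trim Galore, Bismark, Bowtie2, methylKit and the rat build rn6 were used; no version, role or coverage minimum is stated there. It held 2330883 cytosines, 0 missing values and 0 columns left unused. Read counts are not part of it, so depth is unknown and no interval per value is given. Among the 153 pairs of rats, 0 had identical values. Fractions were multiplied to percent. Positions are those of rn6; gene names and sequences were not used here.

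Levels per rat were compared by exact permutation tests within a model and by sign-flip permutation (100000 resamples) over 18 rats. Tiles of 1000 bp with at least 3 cytosines and a range of at least 5 points, and cytosines with a range of at least 10 points, were tested with limma 3.58.1 in R 4.3.3 (trend, 4 groups, 14 residual degrees of freedom) over the whole table, with Benjamini-Hochberg adjustment and a threshold of 0.05. The other steps used Python 3.11.15, with numpy 2.4.6, pandas 2.3.3 and scipy 1.17.1. The procedure was tested on simulated data. The shifts put into simulated tiles were larger than any seizure difference of a named tile. How often limma would find smaller differences was not tested. Named tiles were the 5 with the smallest p per direction and model, the 3 per direction for the mean of both models and the 5 with the largest SD within groups; named ends were the 3 highest and 3 lowest. Alternatives changed the window (1 or 5 Mb), the weighting, the tile size, the filters, the scale, the fit and the rats used. The ends and the lists were chosen with earlier results of these data known.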

Additional observations from a re-analysis of the deposited data

Results flagged for a closer look

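In the groups of 4 and 7 rats, 162 sets of values (mean levels and deviations, the 20 ends and the named tiles) were examined for a rat far from the others of its group, and 6 had one. Chance alone flags about 1 in 20 of sets not chosen by their values. All 6 were in named tiles, which were chosen by p or by SD within groups, so that rate does not apply to them. In kindling seizure rats, replicate 4 stood at 86.4% at chr10:111836001-111837000 (the other 3 rats at 91.9 to 92.8%), at 83.1% at chr5:172772001-172773000 (the others at 87.5 to 88.2%) and at 25.3% at chr1:281792001-281793000 (the others at 59.8 to 65.6%). In kainic acid sham rats, replicate 2 stood at 80.5% at chr5:172732001-172733000 (the other 6 rats at 88.2 to 92.2%), replicate 3 at 73.1% at chr11:88502001-88503000 (the others at 78.8 to 82.2%) and replicate 5 at 11.9% at chr5:171946001-171947000 (the others at 48.4 to 65.2%). All 6 values were low ones.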

How the results depend on the processing

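Of 358 alternative values for 15 results, 333 kept their direction and their side of the threshold. Leaving out a rat of 1 model cannot change a difference of mean levels within the other model. Some of the 333 therefore repeat the main value and are no test of it. The lower level of the ends held in all 25 alternatives, from -13.9 to -1.18 points. The lower deviation held in 24 of 25 and was 0.00863 points with a window of 5 Mb. The density ratio was 0.958 with a window of 1 Mb, 1.49 with 5 Mb, 0.662 as the median chromosome and 0.557 without chromosomes 3, 5, 7 and 12, the last chosen after seeing the data. The kindling difference of ends minus rest, never past the threshold, was -0.0272 points with a window of 1 Mb, -0.0320 over tiles and -0.00273 with strands averaged; leaving out 1 rat gave -0.0545 to 0.0586, below 0 without kindling sham replicate 3 or 4 or kindling seizure replicate 3. The difference between models was -0.142 as a mean of chromosomes, -0.0794 without those 4 chromosomes and -0.176 to 0.248 with 1 rat left out, below 0 without kindling sham replicate 1 or 3, kindling seizure replicate 2 or 4, kainic acid sham replicate 5 or 7, or kainic acid seizure replicate 3. The cause of these shifts was not tested. Leaving out 1 rat gave 0.0451 to 0.469 points for the kindling difference of the ends and 0.221 to 0.365 for the kainic acid one. The 0.0451 was without kindling seizure replicate 3, so much of the main difference of 0.278 points came with that rat. The 0.469 was without kindling seizure replicate 4. The kainic acid difference of ends minus rest was -0.0624 without seizure replicate 1 and -0.0156 without seizure replicate 2 of that model.

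No end tile was called by limma in any alternative. Called end cytosines numbered 1 in kindling with the replicate block (1 in the whole table), 1 in a fit of that model alone (8 in the whole table) and 0 to 1 with 1 rat left out, the 1 without kindling sham replicate 1, of 51 in the whole table, being chr3:176079302 (limma, adjusted p = 0.0369), where the opposite strand differed by -4.72 points. In the kainic acid model 1 was called with the replicate block, of 34 in the whole table, and 5 without the range filter, of 228, whose ranges were 1.85 to 7.41 points. Same-numbered rats correlated by -0.111 to 0.155 in kindling and -0.0418 to -0.0156 in the kainic acid model, so the numbers were not taken to pair rats. Of the seizure rats, only kindling seizure replicate 1 correlated best with the sham rat of its own number. With the block, the seizure differences of the ends were 0.278 points in kindling (exact permutation p = 0.125) and 0.186 in the kainic acid model (p = 0.5, exact). Those of ends minus rest were 0.00852 and -0.0516. These block tests set same-numbered rats against each other, 4 pairs in kindling and 3 in the kainic acid model. With so few pairs neither test could give a p under 0.05, and 0.125 is the smallest p that 4 pairs can give. Kainic acid sham rats without a same-numbered seizure rat did not enter them. Depth is unknown, which limits what can be said of single cytosines.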
